A study of Mus musculus with 4 samples.

Results

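The genes described here are 9 enzymes of folate-dependent one-carbon metabolism, read by 12 probes of a mouse expression array on which 30026 genes were named. They were chosen by gene name among the non-control spots, and all 9 were found. Folate, as tetrahydrofolate, carries single carbon units between enzymes, and the pathway runs in parallel in the cytosol and in mitochondria. Mitochondria break down serine and export its carbon as formate, and the cytosol uses the carbon for purines, thymidylate and the remethylation of homocysteine to methionine. Liver stores folate and also burns off surplus one-carbon units. The cytosolic enzymes are Mthfd1, Shmt1, Aldh1l1, Ftcd and Mtrr, and the mitochondrial ones Mthfd2, Mthfd1l, Shmt2 and Aldh1l2.

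Liver RNA of C57BL/6N mice was compared between Pnpla7-/- animals (KO) and wild type (WT) animals aged 6 and 3 weeks. PNPLA7 removes fatty acids from lysophospholipids, and the series' title links it to the supply of choline methyl groups to the methionine cycle. Each of the 4 groups, KO and WT at 6 weeks and KO and WT at 3 weeks, is 1 pool of RNA from 5 livers on 1 one-colour array. With 1 array per group, no difference between groups has a replicate check, and errors given below are those of the spot as the scanner software estimates them. Sex, feeding and time of day of the livers are not given in the sources used here.

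Pnpla7 had a signal of 4.42 on the array labelled KO and 9.65 on that of WT at 6 weeks, and of 6.70 on the array labelled KO and 7.54 on that of WT at 3 weeks. These and all signals below are multiples of the 75th percentile of their array. Its 1 probe may lie outside the deleted part, in which case it checks nothing, so every KO direction rests on the label. All 10 hepatocyte markers (Alb, Ttr, Cps1 and others) were well above background on all 4 arrays, with a median log2 KO/WT ratio of 0.23 at 6 weeks and 0.03 at 3 weeks. Skeletal muscle markers, 10 of 10, were at least 2-fold higher on the arrays labelled KO at both ages. Of all genes tested, 6.11% were at 6 weeks and 2.86% at 3 weeks. The summed signal of the muscle markers was 42.3 on the array labelled KO and 0.934 on that of WT at 6 weeks. At 3 weeks it was 59.7 on the array labelled KO and 0.297 on that of WT. The part of the muscle markers in the folate results was not tested.

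The promoters of 3 mitochondrial members are shown because of their age ratios. Mthfd2 was past 2-fold with age in both genotypes, Mthfd1l in WT only and Shmt2 in neither. Each line runs from 250 bases before to 50 bases after the RefSeq start site in build GRCm38.p6, with matches to CCAAT or GGGCGG on either strand in capitals. Mthfd2 lies at chr6:83317555-83317854 on the minus strand, Mthfd1l at chr10:3972825-3973124 on the plus strand and Shmt2 at chr10:127522395-127522694 on the minus strand.
Mthfd2: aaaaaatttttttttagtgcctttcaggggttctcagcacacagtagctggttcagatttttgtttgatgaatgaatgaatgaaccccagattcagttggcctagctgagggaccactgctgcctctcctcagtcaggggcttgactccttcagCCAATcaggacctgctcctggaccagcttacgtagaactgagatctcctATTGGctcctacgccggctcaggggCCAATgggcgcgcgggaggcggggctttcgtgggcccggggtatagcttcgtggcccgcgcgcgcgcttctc
Mthfd1l: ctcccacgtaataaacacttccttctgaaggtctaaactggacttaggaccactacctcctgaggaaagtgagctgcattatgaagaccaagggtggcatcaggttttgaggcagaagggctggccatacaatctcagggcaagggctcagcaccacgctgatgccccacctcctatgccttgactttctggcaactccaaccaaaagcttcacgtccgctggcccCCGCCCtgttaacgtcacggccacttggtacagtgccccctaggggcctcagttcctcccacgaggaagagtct
Shmt2: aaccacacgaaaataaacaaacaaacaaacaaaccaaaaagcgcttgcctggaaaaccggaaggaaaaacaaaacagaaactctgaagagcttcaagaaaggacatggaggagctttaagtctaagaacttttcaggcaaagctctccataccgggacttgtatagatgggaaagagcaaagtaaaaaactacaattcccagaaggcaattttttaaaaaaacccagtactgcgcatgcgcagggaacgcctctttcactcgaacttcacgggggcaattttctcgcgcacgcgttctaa
The Mthfd2 promoter held 3 CCAAT boxes, starting at bases -96, -47 and -22 from the start site, the Mthfd1l promoter held 1 GC box at -24, and the Shmt2 promoter held neither motif. No matches overlapped in these 3 promoters. Whether the motifs bear on the age ratios was not tested. CCAAT was found in 37.4% and GGGCGG in 35.7% of 32851 promoters of the same length, and each was in 6 of the 9 promoters of the 8 members matched in the RefSeq table. Neither the C/EBP-ATF composite motif TGATGNAA nor the E-box CACGTG, present in 3.97% and 7.15% of all promoters, was found in those 9. Aldh1l2 was the member not matched. The Mtrr promoters overlap and share their CCAAT box and their GC box, so these sites are counted more than once among the 9. Mthfd1, Shmt1 and Aldh1l1 also held both CCAAT and GGGCGG.

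At 6 weeks, 7 of the 9 enzymes had a higher signal on the array labelled KO and 2 a lower one, and none differed by 2-fold. Of all genes tested, 55.5% had a higher signal on the array labelled KO. All 5 cytosolic members were higher, by 0.25 to 0.67 on the log2 scale, while the 4 mitochondrial members spread from -0.92 to 0.71. Among all genes tested in this comparison 10.6% were past 2-fold, 6.11% higher and 4.54% lower, and 0 of 9 members is close to that share. The median log2 ratio was 0.51 for the cytosolic members, 0.12 for the mitochondrial members and 0.05 for all 21386 genes. All 9 members lay between the 5th and the 95th percentile of all genes, which were -0.94 and 1.14. The size of the ratios depended on the scaling and the probe: across 10 alternatives the ratio of Aldh1l1 ran from 0.39 to 1.28, that of Mthfd1 from 0.27 to 0.50, that of Ftcd from 0.22 to 0.51, that of Shmt1 from 0.02 to 0.25, that of Shmt2 from 0.17 to 0.40 and that of Mthfd1l from 0.49 to 0.84.

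Mthfd1, the cytosolic enzyme that interconverts methylene-, methenyl- and formyl-tetrahydrofolate, had a signal of 28.4 on the array labelled KO and 20.2 on that of WT at 6 weeks, and of 20.5 in KO and 22.4 in WT at 3 weeks. The array labelled KO at 6 weeks stood above the other 3, which lay within the spot error of one another. Its log2 KO/WT ratio was 0.50 ± 0.20 (spot error) at 6 weeks and -0.13 ± 0.20 at 3 weeks.

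Shmt1, which moves a carbon between serine and glycine in the cytosol, had a signal of 5.12 on the array labelled KO and 4.32 on that of WT at 6 weeks, and of 3.50 in KO and 3.60 in WT at 3 weeks. Both 6-week arrays were above both 3-week arrays, and the log2 KO/WT ratio of 0.25 ± 0.20 at 6 weeks was little over 1 spot error. At 3 weeks it was -0.04 ± 0.20.

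Aldh1l1, which oxidises formyl-tetrahydrofolate to carbon dioxide and is an abundant liver protein, had a signal of 153 on the array labelled KO and 99.99 on that of WT at 6 weeks, and of 105 in KO and 114 in WT at 3 weeks. As for Mthfd1, the array labelled KO at 6 weeks was the high one. The log2 KO/WT ratio was 0.62 ± 0.20 at 6 weeks and -0.12 ± 0.20 at 3 weeks.

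Ftcd, which passes the formimino group from histidine breakdown to tetrahydrofolate, had a signal of 73.5 on the array labelled KO and 51.5 on that of WT at 6 weeks, and of 36.8 in KO and 36.4 in WT at 3 weeks. The 3-week arrays were alike, and the 6-week arrays stood above them with KO the higher. The log2 KO/WT ratio was 0.51 ± 0.20 at 6 weeks and 0.01 ± 0.20 at 3 weeks.

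Mtrr, the reductase that keeps methionine synthase active, was dim, with a signal of 0.0448 on the array labelled KO and 0.0281 on that of WT at 6 weeks, and of 0.0666 in KO and 0.0527 in WT at 3 weeks. KO was higher than WT at both ages and both 3-week arrays were higher than both 6-week arrays. The log2 KO/WT ratio was 0.67 ± 0.26 at 6 weeks and 0.34 ± 0.23 at 3 weeks, and with normexp background correction and quantile normalization these were 0.31 and 0.15. On the WT array at 6 weeks the Mtrr spot stood 2.4 times above the lowest spot called well above background.

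**Figure D1:**
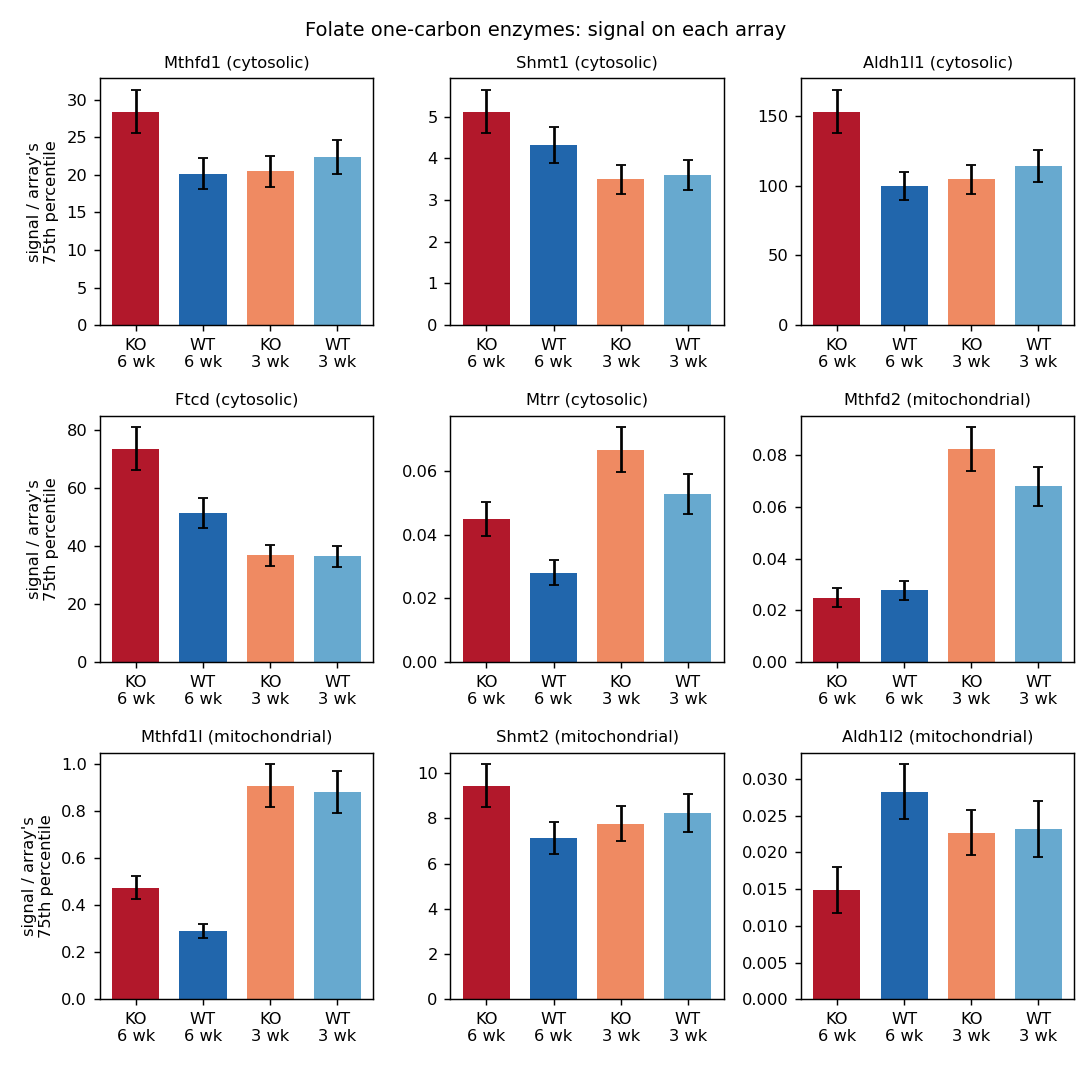
Signal of the 9 enzymes on each of the 4 arrays, as multiples of its 75th percentile, with bars starting at 0 and error bars for the scanner software's spot error. Mthfd1, Aldh1l1 and Ftcd are highest on the array labelled KO at 6 weeks, and Mthfd2, Mthfd1l and Mtrr are higher on both 3-week arrays than on both 6-week arrays. Heights are not comparable between panels, since each panel is another probe.

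Of the mitochondrial members, Shmt2, which splits serine in mitochondria, was higher on the array labelled KO at 6 weeks, like the cytosolic members. Its signal was 9.44 on the array labelled KO and 7.15 on that of WT at 6 weeks, and 7.76 in KO and 8.24 in WT at 3 weeks. The log2 KO/WT ratio was 0.40 ± 0.20 at 6 weeks and -0.09 ± 0.20 at 3 weeks.

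Mthfd1l, the mitochondrial synthetase that releases formate, had a signal of 0.475 on the array labelled KO and 0.289 on that of WT at 6 weeks, and of 0.907 in KO and 0.880 in WT at 3 weeks. The 3-week arrays differed by less than the spot error, and WT at 6 weeks was the lowest of the 4. The log2 KO/WT ratio was 0.71 ± 0.21 at 6 weeks and 0.04 ± 0.20 at 3 weeks.

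Mthfd2, the mitochondrial dehydrogenase and cyclohydrolase known from embryonic and dividing cells, had a signal of 0.0249 on the array labelled KO and 0.0278 on that of WT at 6 weeks, and of 0.0822 in KO and 0.0679 in WT at 3 weeks. KO and WT lay within the spot error at 6 weeks, with a log2 ratio of -0.16 ± 0.29, and differed by 0.27 ± 0.22 at 3 weeks. The 6-week arrays were both far below the 3-week arrays.

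Aldh1l2, the mitochondrial counterpart of Aldh1l1, was dim on all 4 arrays, with a signal of 0.0149 on the array labelled KO and 0.0282 on that of WT at 6 weeks, and of 0.0227 in KO and 0.0232 in WT at 3 weeks. The array labelled KO at 6 weeks was the low one, and there the spot stood 1.1 times above the lowest spot called well above background. The log2 KO/WT ratio of -0.92 ± 0.36 at 6 weeks was -0.28 with normexp background correction and quantile normalization. At 3 weeks the ratio was -0.03 ± 0.31.

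At 3 weeks no member was past 2-fold between KO and WT. Of all 21758 genes tested 5.76% were past 2-fold, 2.86% higher and 2.9% lower, and 0 of 9 members is close to that share. Log2 ratios of KO over WT ran from -0.13 for Mthfd1 to 0.34 for Mtrr. None of the 9 exceeded 2 spot errors at 3 weeks, while 6 did at 6 weeks. The share of all genes that did was not computed, so these counts have nothing to be set against. All genes were also spread more widely at 6 weeks, with 5th and 95th percentiles of -0.94 and 1.14, against -0.63 and 0.59 at 3 weeks. At 3 weeks the median was -0.04 for the cytosolic and 0.01 for the mitochondrial members, and that of all genes was 0.00. The KO/WT ratio was more positive at 6 than at 3 weeks for the 5 cytosolic members, by 0.29 (Shmt1) to 0.74 (Aldh1l1), and for Mthfd1l and Shmt2, by 0.67 and 0.49. It was less positive for Mthfd2, by -0.44, and for Aldh1l2, by -0.89. These differences have no test, and those of Mtrr, Mthfd2 and Aldh1l2 rest on dim spots.

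Other liver features moved with the 6-week ratios. Of 10 hepatocyte markers 9 were higher on the array labelled KO, none by 2-fold, and centring on their median left the cytosolic members at a median of 0.29 and the mitochondrial members at -0.11. Zonal hepatocyte markers were nearer to the cytosolic members' median of 0.51: 6 of 6 pericentral markers were higher, with a median of 0.43, and 5 of 6 periportal ones, with a median of 0.36. The 6 macrophage markers were all lower, with a median of -0.87. Their summed signal was 25.2 on the array labelled KO and 46.3 on the WT array. By 2-fold or more, 13 of 20 cell cycle genes were lower on the array labelled KO and 1 was higher. Of all genes tested, 4.54% were lower and 6.11% higher by as much. The part of these lists in the folate results was not tested. In whole liver RNA, fewer cells of a type and less RNA per cell cannot be told apart.

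**Figure D2:**
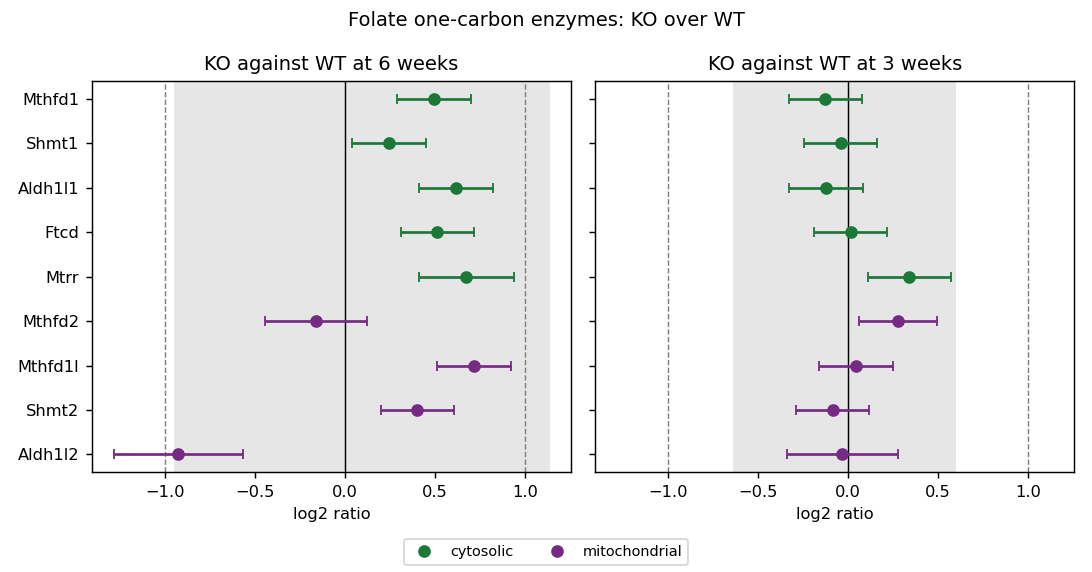
Log2 ratio of KO over WT for the 9 enzymes at 6 weeks (left) and 3 weeks (right), with the scanner software's spot error as bars, the 5th to 95th percentile of all genes in grey and 2-fold as dashed lines. At 6 weeks the 5 cytosolic members lie between 0.25 and 0.67 and the mitochondrial members between -0.92 and 0.71, and at 3 weeks all 9 lie between -0.13 and 0.34.

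Mthfd2 was past 2-fold between the ages in both genotypes, and Mthfd1l in WT only. Mthfd2 was lower at 6 weeks than at 3 weeks on arrays of both genotypes, at 0.302 of its 3-week signal in KO (log2 ratio -1.73 ± 0.26) and 0.409 in WT (-1.29 ± 0.25). Mthfd1l was at 0.523 in KO (-0.93 ± 0.20) and 0.329 in WT (-1.60 ± 0.20). On the probes used, 1 of 9 members was past 2-fold in KO and 2 of 9 were in WT. Of 21971 genes tested in KO 12.3% were past 2-fold, 6.02% higher and 6.26% lower, and 1 of 9 members is close to that share. Of 21169 in WT 9.1% were, 3.64% higher and 5.46% lower. With normexp background correction and quantile normalization, Mthfd2 was within 2-fold in both genotypes, at -0.87 in KO and -0.65 in WT. Mtrr, a cytosolic member, was lower at 6 weeks too, by log2 ratios of -0.57 ± 0.23 in KO and -0.91 ± 0.26 in WT.

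Ftcd and Shmt1 were the 2 members higher at 6 weeks in both genotypes. Ftcd had log2 ratios of 0.999 ± 0.20 in KO, just short of 2-fold, and 0.50 ± 0.20 in WT, and with median scaling the KO ratio was 1.05. Shmt1 had 0.55 ± 0.20 in KO and 0.26 ± 0.20 in WT. Mthfd1 and Aldh1l1 were higher at 6 weeks in KO, by 0.47 ± 0.20 and 0.55 ± 0.20, and stood at -0.15 ± 0.20 and -0.19 ± 0.20 in WT. Shmt2 stood at 0.28 ± 0.20 in KO and -0.21 ± 0.20 in WT, and the dim Aldh1l2 at -0.61 ± 0.36 in KO and 0.28 ± 0.30 in WT. The KO age ratios and the 6-week KO/WT ratios use the same array, so the pattern of one is in part that of the other.

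By compartment, the median log2 ratio of 6 over 3 weeks was 0.55 in KO and -0.15 in WT for the cytosolic members, and -0.77 in KO and -0.75 in WT for the mitochondrial ones. The medians of all genes were 0.05 in KO and 0.01 in WT. The mitochondrial median minus the cytosolic one was thus -1.32 in KO and -0.60 in WT. Neither compartment moved as 1: the cytosolic Mtrr was lower at 6 weeks in both genotypes, and in WT the mitochondrial median lay in a gap between Mthfd2 and Mthfd1l on one side and Shmt2 and Aldh1l2 on the other. Over the same interval, 18 of 20 cell cycle genes were at least 2-fold lower in each genotype, with medians of -2.99 in KO and -1.65 in WT. In both, 6 of 6 neutrophil markers were at least 2-fold lower. Of all genes tested, 6.26% were at least 2-fold lower in KO and 5.46% in WT. Periportal hepatocyte markers had a median of 0.79 in KO and 0.09 in WT, and pericentral ones 0.34 in KO and 0.16 in WT. The part of these lists in the members' age ratios was not tested.

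**Figure D3:**
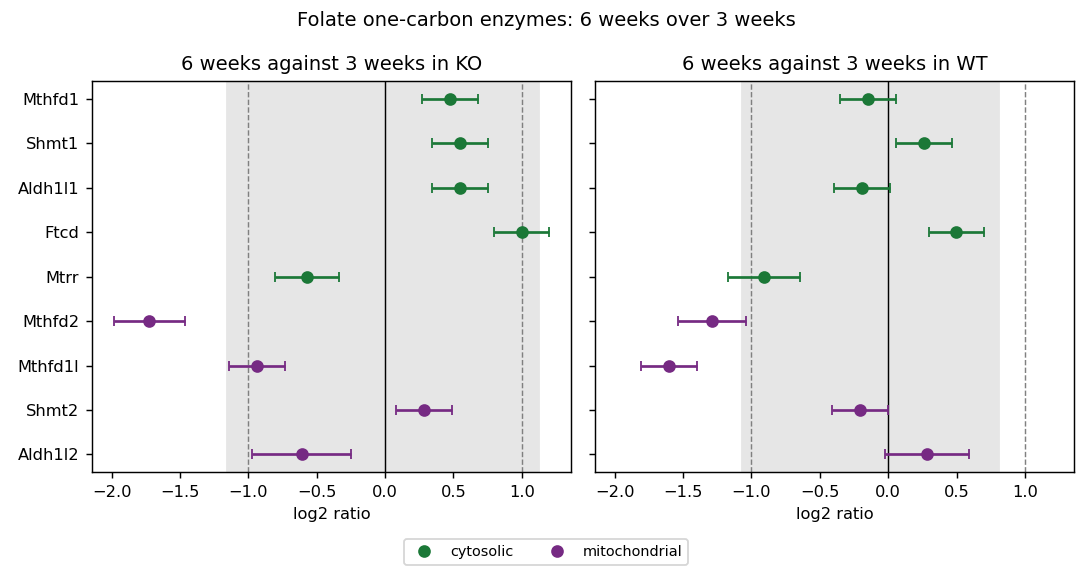
Log2 ratio of 6 over 3 weeks for the 9 enzymes in KO (left) and WT (right), drawn as in the plot of KO over WT. Mthfd2 lies at -1.73 in KO and -1.29 in WT and Mthfd1l at -0.93 in KO and -1.60 in WT, while Ftcd lies at 0.999 in KO and 0.50 in WT.

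limma, fitted over the 4 arrays with age and genotype as terms, has 1 residual degree of freedom and called 0 of 22648 genes for either term after Benjamini-Hochberg adjustment (2308 genes for age and 1007 for genotype had an unadjusted p under 0.05). With a trend in the variance prior it called 0 genes for age and 4 for genotype, and, with the trend among the 18871 genes that all 4 arrays measured above background, 77 for age and 4 for genotype. No member was among those called in any of these limma fits. With both terms, the genotype effect averages KO/WT over the ages, and a change of KO/WT with age counts as residual. In the fit without the trend, limma gave Mthfd2 an age effect of -1.51 ± 0.20 on the log2 scale (SE; unadjusted p = 0.00848, adjusted p = 0.431). Mthfd1l had -1.27 ± 0.26 in the same limma fit (unadjusted p = 0.0234, adjusted p = 0.457) and Mtrr -0.74 ± 0.18 (unadjusted p = 0.0354, adjusted p = 0.477). The other 6 members had an unadjusted p above 0.05 for age, and for genotype all 9 did, with adjusted p from 0.914 upwards in limma.

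The members with 2 probes allow a check within each array. Mthfd1l was read by a brighter probe at chromosome 10, positions 6190563 to 6190622, and another at 6198416 to 6198475 (mouse build mm9, minus strand, as the files give them). The brighter probe's log2 ratios of 6 over 3 weeks were -0.93 in KO and -1.60 in WT, and the other probe's were -0.84 in KO and -1.61 in WT. Both placed WT at 6 weeks lowest and the 3-week arrays together.

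The dimmer Mthfd1l probe holds a stretch that resembles the probe of its cytosolic relative Mthfd1 (chromosome 12, positions 77418622 to 77418681), and the stretches are shown because the transcripts are related. Whether either probe reads the other transcript was not tested. Of 26 aligned bases 22 were identical, or 84.6%, and identical bases are in capitals.
Mthfd1: GAAACGGAaCAAGTgAAtGGaTTGTT
Mthfd1l: GAAACGGAgCAAGTtAAaGGcTTGTT
The longest such match of the brighter Mthfd1l probe to the Mthfd1 probe had 6 bases.

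Shmt1 was read at chromosome 11, positions 60603099 to 60603158 by the brighter probe and 60620453 to 60620512 by the other (mm9, minus strand). For KO/WT at 6 weeks the brighter probe had a log2 ratio of 0.25 and the other 0.23, and for 6 over 3 weeks in KO they had 0.55 and 0.34. All 4 arrays kept their order on both probes.

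The Aldh1l1 probes disagreed. The brighter one, at chromosome 6, positions 90549091 to 90549150, gave a KO/WT ratio of 0.62 at 6 weeks, and the other, at 90550028 to 90550087 (mm9, plus strand), gave 1.28. The other probe, assigned in the files to an Ensembl transcript, had a signal of 1.88 on the array labelled KO and 0.771 on that of WT at 6 weeks, and of 1.75 in KO and 1.83 in WT at 3 weeks. For 6 over 3 weeks in WT it gave -1.25, past 2-fold, where the brighter probe gave -0.19. It set the WT array at 6 weeks apart as low, while the brighter probe set the array labelled KO at 6 weeks apart as high.

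**Figure D4:**
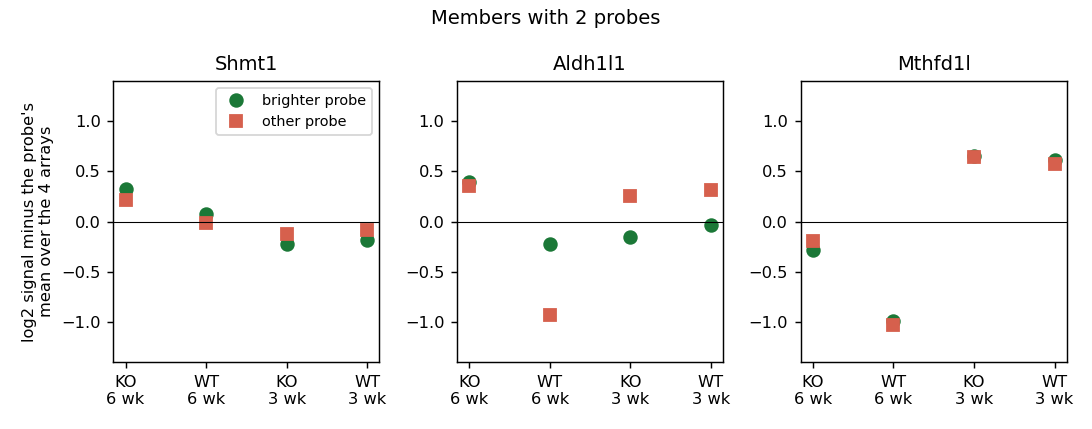
Log2 signal of each probe minus its own mean over the 4 arrays, for the 3 members with 2 probes. The probes of Shmt1 and Mthfd1l lie close together on every array, and those of Aldh1l1 part on both 3-week arrays and most on that of WT at 6 weeks.

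The remaining members had 1 probe and 1 spot each, at chromosome 6, positions 83256518 to 83256577 for Mthfd2, chromosome 10, 126954811 to 126954870 for Shmt2, chromosome 10, 82950571 to 82950630 for Aldh1l2, chromosome 10, 76052237 to 76052296 for Ftcd and chromosome 13, 68699721 to 68699780 for Mtrr (mm9). Whether each lies in a coding exon or an untranslated region was not analysed here.

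Around the 9 enzymes, the 14 further folate enzymes given here had a median log2 KO/WT ratio of 0.11 at 6 weeks, from -0.36 to 0.68, and of -0.01 at 3 weeks, from -0.27 to 0.21. None of these 14 was past 2-fold at either age, but they are not the whole set of folate enzymes. Of all genes tested, 10.6% were past 2-fold at 6 weeks and 5.76% at 3 weeks. Mtr, methionine synthase, which Mtrr reactivates, had a signal of 0.518 on the array labelled KO and 0.544 on that of WT at 6 weeks, and of 0.512 in KO and 0.552 in WT at 3 weeks. On this brighter probe log2 KO/WT stood at -0.07 at 6 weeks and -0.11 at 3 weeks, while a dimmer Mtr probe, well above background throughout, gave -0.46 at 6 weeks and 0.21 at 3 weeks. The probes differed in sign at 3 weeks.

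Dmgdh and Sardh are the mitochondrial enzymes that take methyl groups from dimethylglycine and sarcosine, products of choline breakdown, onto folate. Dmgdh had a signal of 41.9 on the array labelled KO and 26.2 on that of WT at 6 weeks, and of 20.4 in KO and 24.5 in WT at 3 weeks. Sardh had 31.7 on the array labelled KO and 21.2 on that of WT at 6 weeks, and 18.9 in KO and 22.3 in WT at 3 weeks. For both, the array labelled KO was the highest of the 4 at 6 weeks and the lowest at 3 weeks. KO over WT, Dmgdh stood at 0.68 and Sardh at 0.58 on the log2 scale at 6 weeks, and at -0.27 and -0.24 at 3 weeks. Dmgdh in KO, at 1.04, was also the 1 of these 14 at least 2-fold higher at 6 than at 3 weeks, where 6.02% of all genes were, and it was within 2-fold with normexp and quantile normalization, at 0.80, and with quantile normalization alone, at 0.84.

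Of the enzymes that spend folate carbon in nucleotide synthesis, Tyms, thymidylate synthase, stood at 0.05 (log2 KO/WT) at 6 weeks and 0.03 at 3 weeks. The purine enzymes Gart and Atic had 0.23 and 0.07 at 6 weeks and -0.00 and 0.06 at 3 weeks. A dimmer Gart probe, well above background throughout, differed in sign, at -0.33 at 6 weeks and 0.11 at 3 weeks. On their brightest probes the glycine cleavage genes Gldc, Gcsh, Amt and Dld lay between -0.36 and 0.16 at 6 weeks and between -0.27 and 0.06 at 3 weeks. Mthfd2l, the other mitochondrial methylene-tetrahydrofolate dehydrogenase, stood at -0.33 in KO and -0.21 in WT for 6 over 3 weeks, against -1.73 in KO and -1.29 in WT for Mthfd2.

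Of 7 folate uptake and storage genes, 3 were past 2-fold between KO and WT at 6 weeks, where 10.6% of all genes were, and none at 3 weeks, where 5.76% were and 0 of 7 is close to that share. Slc19a1, the reduced folate carrier, had a signal of 3.08 on the array labelled KO and 1.34 on that of WT at 6 weeks, and of 2.02 in KO and 1.76 in WT at 3 weeks, with a log2 KO/WT ratio of 1.21 at 6 weeks and of 0.59 on its dimmer probe. Folr1, a folate receptor, had 0.0607 on the array labelled KO and 0.0197 on that of WT at 6 weeks, and 0.0350 in KO and 0.0469 in WT at 3 weeks. Its ratio of 1.62 at 6 weeks was 0.59 with normexp background correction and quantile normalization. A dimmer Folr1 probe, well above background on only 1 array, gave -0.07 at 6 weeks. Folr2, a receptor carried by liver macrophages, had a ratio of -1.32 at 6 weeks, and all 6 macrophage markers were lower there as well, from -1.54 to -0.57. Whether the Folr2 ratio follows macrophage content was not tested. Slc25a32, the mitochondrial folate carrier, had 0.51 at 6 weeks and 0.20 at 3 weeks.

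The enzymes that make serine, the main donor of folate carbon, had large age ratios in both genotypes. Phgdh, the first enzyme of the route, had a signal of 0.0558 on the array labelled KO and 0.0820 on that of WT at 6 weeks, and of 1.002 in KO and 0.816 in WT at 3 weeks. Its log2 ratios of 6 over 3 weeks were -4.17 in KO and -3.31 in WT, and all 3 of its probes lay at -2.97 or lower. Psat1, which follows it, had -2.82 in KO and -2.21 in WT, and Psph, the last enzyme, -1.03 in KO and -0.66 in WT. Between KO and WT none of these 3 serine enzymes was past 2-fold at either age. Of all genes tested, 10.6% were at 6 weeks and 5.76% at 3 weeks. The KO/WT ratios of Phgdh, Psat1 and Psph were -0.56, -0.34 and -0.53 at 6 weeks and 0.30, 0.26 and -0.17 at 3 weeks. The other Phgdh probes gave 0.03 and -0.54 at 6 weeks, so the Phgdh probes did not share a sign there.

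**Figure D5:**
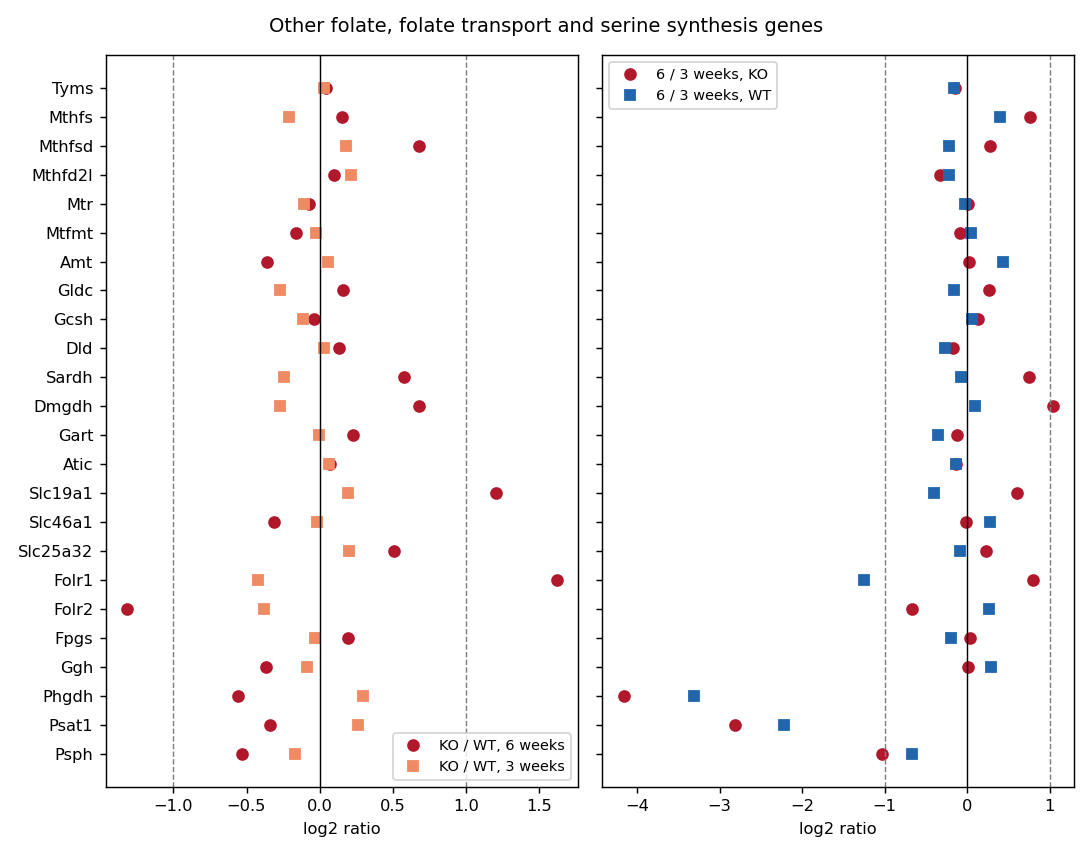
Log2 ratios of the other folate enzymes, folate transport and storage genes and serine synthesis genes, as KO over WT (left; circles 6 weeks, squares 3 weeks) and as 6 over 3 weeks (right; circles KO, squares WT), with 2-fold as dashed lines. Folr2 lies below and Slc19a1 and Folr1 lie above the 2-fold lines for KO over WT at 6 weeks, and Phgdh and Psat1 lie far below them for 6 over 3 weeks in both genotypes.

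Among 18870 other genes well above background on all 4 arrays, those whose signal followed a member most closely were found by the root mean square difference of centred log2 signal over the 4 arrays. For Mthfd2 they were Tead2, Grb10 and Cd63, at 0.0383 to 0.0789, and for Mthfd1l Msln, Slc1a5 and Vcam1, at 0.0665 to 0.0821. For Mtrr they were Gde1, Srm and Clca3a1, at 0.0191 to 0.0561, and for Ftcd Gm4850 and Klf5 were among the 3 closest, at 0.0138 and 0.0216. Gm4850 and Klf5 were dim, with signals of 0.0208 to 0.0428 over the 4 arrays. Grb10 was dim at 6 weeks, at 0.0355 in KO and 0.0449 in WT. The likeness rests on 4 values per gene, and the other 5 members spanned less than 2-fold and were not matched.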

How the data were processed

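Liver RNA pools were hybridised, 1 per array, to 4 Cy3 Agilent arrays of 1 slide, and a group cannot be told apart from its position there. The deposited intensity values come from the scanner software Agilent Feature Extraction, version 11.5.1.1 by the submitters' processing notes, with background subtracted and detrended, per the file headers. The other deposited columns used are 0 or 1 flags, per the file headers. A further table deposited by the authors holds a ratio, the same intensity over each array's 75th percentile. It stood at a median of 0.999826 to 0.999979 of the quotient recomputed here, so its scale and direction are known and no centring was applied. The medians of its columns were 0.0798, 0.0778, 0.0815 and 0.0797 for KO and WT at 6 weeks and KO and WT at 3 weeks.

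From the intensity, log2 of the signal over the 75th percentile of the 43020 non-control spots was taken. Between 28714 and 30697 spots per array were well above background, none was saturated, and 189 to 252 outlier spots were left out. Of 39429 probes, 27509 were named by accession, 3543 by symbol and 404 by synonym in a RefSeq table of GRCm38.p6, and 7973 kept the file's name. The brightest probe stood for a gene. A gene entered a ratio where it was well above background on either array, with a dim side set to the higher of its own signal and the array's lowest signal well above background. Members were counted at 2-fold. The spot error is the scanner software's. Over probes with 10 spots, the median SD of a log2 ratio was 0.096 to 0.125. Precision is limited by there being 4 arrays.

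limma 3.58.1 in R 4.3.3 and Python 3.11.15 with numpy 2.4.6 and pandas 2.3.3 were used. The ratio and limma steps were tested on simulated data. All members and the listed other folate, transport and serine genes could be named, as could up to 4 ATF4 target and cell cycle genes by size and the 3 genes closest in signal to each member that spanned 2-fold. Some folate enzymes outside the 9 are not reported here, and counts of further folate enzymes leave them out. Members and lists were chosen with earlier results of these data known. Alternatives were normexp (offset 50) with quantile normalization, quantile normalization, median scaling, filters on all 4 arrays or none, the mean over a gene's probes, outlier spots left in, the deposited ratio table, 1.5-fold and 3-fold thresholds, and limma with a trend or 1 term. Centring on hepatocyte markers and the other probe of members with 2 probes were chosen after seeing the data.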

Additional observations from a re-analysis of the deposited data

Results flagged for a closer look

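Shmt2, the mitochondrial serine hydroxymethyltransferase, is listed because its age ratios had opposite signs in the genotypes, each larger than 1 spot error. The log2 ratio of 6 over 3 weeks was 0.28 in KO and -0.2058 in WT, each with a spot error of 0.2040, so WT passed it only just. With median scaling WT stood at -0.164. In KO the ratio was 0.167 with normexp and quantile normalization and 0.196 with quantile normalization alone. These 3 values are smaller than that spot error. The difference between the genotypes was not tested.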

How the results depend on the processing

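Every member kept its sign under all 10 alternatives that give a ratio, for KO/WT at 6 weeks and for 6 over 3 weeks in both genotypes, and 7 of 9 did for KO/WT at 3 weeks, where Ftcd and Mthfd1l, both near 0, did not. Several of these alternatives could not change a sign. All members were well above background on all 4 arrays, so the filters returned the main ratios, and the deposited ratio table holds the same quotient. For members with 1 probe, the mean over probes and the other probe also returned the main ratios. With normexp and quantile normalization the cytosolic median was 0.31 for KO/WT at 6 weeks and 0.36 for 6 over 3 weeks in KO, the mitochondrial medians for 6 over 3 weeks were -0.46 in KO and -0.45 in WT, and the members past 2-fold with age were 0 in KO and 1 in WT. With quantile normalization alone these cytosolic medians were 0.38 and 0.33, and 1 member, Aldh1l2, was past 2-fold for KO/WT at 6 weeks. With median scaling 2 members, Mthfd2 and Ftcd, were past 2-fold with age in KO. At 1.5-fold 4 members passed for KO/WT at 6 weeks, as did 4796 of 21386 genes, and 4 with age in KO, as did 5787 of 21971 genes. At 3-fold 1 member, Mthfd2, passed with age in KO, as did 1257 of 21971 genes, and 1, Mthfd1l, in WT, as did 881 of 21169 genes. Centred on hepatocyte markers, the medians were 0.29 (cytosolic) and -0.11 (mitochondrial) for KO/WT at 6 weeks and 0.37 and -0.95 with age in KO, with 1 and 2 members past 2-fold. On the other probes, 1 member, Aldh1l1, was past 2-fold for KO/WT at 6 weeks, and the cytosolic median with age in KO was 0.34. Other settings moved no median by more than the SD between spots, and limma called 4 genes for genotype with a trend. On genes measured on all 4 arrays, an added combination, limma called 77 for age and 4 for genotype with a trend, and 1 each with a single term, while Mtrr had an unadjusted p under 0.05 for genotype. The count of all genes past 2-fold for KO/WT was 2276 at 6 weeks and 1253 at 3 weeks, or 1272 and 411 with all 4 arrays required to be above background, 3838 and 2516 with no filter, and 1050 and 526 with normexp and quantile normalization. For 6 over 3 weeks it was 2697 in KO and 1926 in WT, or 1569 and 1028, 4262 and 3339, and 1308 and 876. The higher share of these was 57.4% for KO/WT at 6 weeks and 49.0% with age in KO, and 38.8% and 35.4% when centred on hepatocyte markers, a centring that lowers the median of all genes to -0.18 and -0.12. Mthfd2, Mtrr and Aldh1l2 lie near background, which limits their ratios. No paired analysis was possible because the labels carry no replicate numbers. limma with both terms averages the KO/WT ratio over both ages and gives no ratio within an age.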

Other observations

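ATF4, the transcription factor of the amino acid response, has targets in serine and folate metabolism as well as elsewhere. Of 17 of its other targets tested, 4 were at least 2-fold higher and 3 lower on the array labelled KO at 6 weeks, where 6.11% of all genes were higher and 4.54% lower. At 3 weeks 2 were higher, where 2.86% of all genes were, and none lower, where 2.9% were. The 2, named after their values were seen, were Asns and Stc2. Asns, asparagine synthetase, stood at 1.24 at 3 weeks and was past 2-fold at 6 weeks too, at 1.32. Stc2, a secreted glycoprotein, was well above background at 3 weeks only on the array labelled KO. Its bound of 1.19 at 3 weeks was 0.36 with normexp and quantile normalization. The largest ratios were at 6 weeks. Trib3, a pseudokinase, had a signal of 8.21 on the array labelled KO and 1.99 on the WT array, a log2 ratio of 2.05, and Ddit4, an inhibitor of mTORC1, had 9.80 on the array labelled KO and 2.52 on the WT array, a log2 ratio of 1.96. Fgf21, a hepatokine, had 0.467 on the array labelled KO and 1.82 on the WT array, a log2 ratio of -1.96, and Gdf15, a stress hormone, had 1.03 on the array labelled KO and 3.13 on the WT array, a log2 ratio of -1.60. The list's median was 0.05 at 6 weeks and -0.01 at 3 weeks, so its members did not move one way.

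On the array labelled KO at 6 weeks, 4.54% of all genes were lower and 6.11% higher by 2-fold or more. Of 20 cell cycle genes, 13 had a lower and 1 a higher signal there by as much. The higher one, named after its value was seen, was Rrm2, a subunit of ribonucleotide reductase, at 1.31, with a signal of 3.37 on the array labelled KO and 1.36 on that of WT. The lower ones included Cdc20, an activator of the anaphase-promoting complex, at -3.36, and Ccnb1, cyclin B1, at -2.96. Top2a, a DNA topoisomerase not well above background on the array labelled KO, stood at -2.70 or below, and Aurka, a mitotic kinase, at -2.14. Tyms, which uses folate carbon in dividing cells, stood at 0.05 on the same arrays. Its 1 probe was dim there, with a signal of 0.0777 in KO and 0.0752 in WT. For 6 over 3 weeks it stood at -0.14 in KO and -0.16 in WT.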
